A study of Mus musculus with 4 samples.

Results

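The 8 genes described here carry antigen presentation in the mouse: B2m, H2-K1, H2-D1 and Tap1 of the class I pathway, and Cd74, H2-Aa, H2-Ab1 and H2-Eb1 of the class II pathway. They were chosen by name, and all 8 were found among the 17712 genes of the expression matrix. Their UMI counts (UMIs are molecular tags that count each captured transcript once) were followed over the 10 cell clusters the study defined and over its 4 libraries. H2-Ea, the gene of the alpha chain that pairs with H2-Eb1, is annotated as a polymorphic pseudogene (H2-Ea-ps) and was not analysed here. Whether these mice make an I-E molecule was therefore not examined.

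Class I molecules display peptides made inside a cell to cytotoxic T cells, and most nucleated cells carry them. H2-K1 and H2-D1 encode the heavy chains, B2m the light chain that every class I heavy chain needs, and Tap1 a subunit of the transporter that moves peptides into the endoplasmic reticulum. Class II molecules display peptides taken up from outside to helper T cells and are made mainly by dendritic cells, macrophages and B cells, although gut epithelium can also make them under interferon gamma. H2-Aa and H2-Ab1 encode the alpha and beta chains of the I-A molecule, H2-Eb1 the beta chain of I-E, and Cd74 the invariant chain that guides class II molecules to the endosome.

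The cells came from the stomach of Rosa26iH2b-GFP mice, made on a C57BL6/N background by CRISPR knock-in, which carry at Rosa26 both an H2b-GFP gene under the TRE3G promoter and the Tet-on 3G activator under EF1a. All groups shared these alleles, an age of 14 weeks, female sex, 4 weeks of doxycycline and a chase of 6 weeks, in which dividing cells dilute the GFP. Cells negative for Cd45 and Cd31 were sorted either for Epcam alone (Epcam+) or for Epcam and retained GFP (GFP+), and cells of 2 mice were combined before loading. Each sort gave 2 libraries (10x Genomics 3′ v3). Since no source states that the 2 libraries of a sort came from separate animals, the p-values measure the spread between libraries, which may be technical.

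The matrix held 4449 cells, with 1642 and 1896 in the Epcam+ libraries and 467 and 444 in the GFP+ libraries, at totals of 35571141 to 79455225 UMIs per library and medians of 31735 to 104840 per cell. Cells were deepest in the chief cells of cluster 1 (medians of 104376 to 165757 UMIs in the 4 libraries), where Clps, Pla2g1b and Pgc alone took 81.7% to 82.6% of the UMIs. The study's cluster names stood beside their markers: Muc6 averaged 5835 CPM (UMIs of a gene per library and cluster, scaled to a common total) in neck cells (cluster 0), Tff1 70157 in pit cells (cluster 2), Top2a 134 and 505 in the isthmus clusters 3 and 4, Chga 39590 in the endocrine cells of cluster 6, and Atp4a 3521 in parietal cells (cluster 8). Cluster 9, named tuft cells, held 32 cells (Lrmp, 3102 CPM). Ptprc and Pecam1, the genes of Cd45 and Cd31, had 0 UMIs because the authors had removed cells with any. Of 4445 distinct barcodes, 4 occurred in more than 1 library.

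The genes lie on chromosome 17, except B2m and Cd74. In the GRCm38 annotation (GENCODE vM21), H2-K1 is at chr17:33996017-34000347, Tap1 at chr17:34187553-34197225, H2-Ab1 at chr17:34257689-34269419, H2-Aa at chr17:34282744-34287823, H2-Eb1 at chr17:34305867-34316674 and H2-D1 at chr17:35262730-35267499, all protein coding. B2m is at chr2:122147686-122153083. The first bases of Tap1 overlap Psmb9, and the start of H2-Eb1 overlaps the antisense gene Gm20513. Both overlaps are with a gene on the other strand and lie at gene starts, whereas the libraries were 3′ libraries. Their part in the counts was not tested. H2-K1 and H2-D1 resemble each other and their nonclassical relatives, so that the division of reads among these genes is uncertain.

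The promoters are shown because class I and class II genes are known to share control elements. RefSeq (GRCm38.p6) gave a promoter for 6 of the 8 genes, and the 200 bases before the start are printed for the class I genes B2m, H2-K1 and H2-D1 and the class II genes H2-Aa and H2-Eb1, 5′ to 3′ on the strand of the gene. Capitals mark the motifs searched on both strands: an NF-kB type site, interferon response type sites of 2 forms, an X2 type site (TGACG) and the Y box (CTGATTGG). B2m is read from chr2:122147487-122147686 on the plus strand, H2-K1 from chr17:34000348-34000547 on the minus strand, H2-D1 from chr17:35262894-35263093 on the plus strand, H2-Aa from chr17:34287824-34288023 on the minus strand and H2-Eb1 from chr17:34305667-34305866 on the plus strand. The stretch of H2-D1 lies inside the gene as GENCODE draws it, because RefSeq places the start later.
B2m: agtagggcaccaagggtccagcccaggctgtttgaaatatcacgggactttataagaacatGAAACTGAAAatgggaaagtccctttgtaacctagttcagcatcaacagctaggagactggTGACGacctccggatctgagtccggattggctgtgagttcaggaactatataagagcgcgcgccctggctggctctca
H2-K1: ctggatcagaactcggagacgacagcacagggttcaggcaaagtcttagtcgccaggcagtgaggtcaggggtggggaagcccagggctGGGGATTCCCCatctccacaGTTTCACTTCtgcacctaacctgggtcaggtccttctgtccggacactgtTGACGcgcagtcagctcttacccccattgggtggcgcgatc
H2-D1: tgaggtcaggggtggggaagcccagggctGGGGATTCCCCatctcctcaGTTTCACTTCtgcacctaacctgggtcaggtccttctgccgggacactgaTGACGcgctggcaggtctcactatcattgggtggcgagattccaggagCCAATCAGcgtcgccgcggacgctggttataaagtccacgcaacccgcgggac
H2-Aa: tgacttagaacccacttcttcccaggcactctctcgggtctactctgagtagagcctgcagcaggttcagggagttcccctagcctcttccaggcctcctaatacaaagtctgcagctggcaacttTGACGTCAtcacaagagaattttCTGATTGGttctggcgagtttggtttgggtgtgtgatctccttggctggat
H2-Eb1: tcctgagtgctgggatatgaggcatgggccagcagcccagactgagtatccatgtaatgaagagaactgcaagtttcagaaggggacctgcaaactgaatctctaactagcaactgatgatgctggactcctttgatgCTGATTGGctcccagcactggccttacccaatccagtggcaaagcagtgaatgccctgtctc
H2-K1 and H2-D1 shared the NF-kB type site (-111 and -171 from the start) and one form of the interferon response type site (-91 and -151), which were found in 0.0274% and 0.274% of the same stretches of 32851 RefSeq promoters. B2m had the other form at -139, which 2.27% of promoters held. TGACG stood in B2m, H2-K1, H2-D1 and H2-Aa (where 2 copies overlap on opposite strands) and, among the members not printed, in Tap1, and in 15.7% of all promoters. CTGATTGG stood in H2-D1, H2-Aa and H2-Eb1, and in 3.54% of all promoters. Outside the 200 bases it also stood in H2-K1, at 9 after the start, and in Tap1 at -222. RefSeq lists 2 starts for H2-K1 and the outermost was used, which sets the positions given for its sites. These matches describe letters, not binding.

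Class I transcripts were found in nearly every epithelial cell and class II transcripts in few. B2m, H2-K1 and H2-D1 together had 125865 UMIs, and 4434 of 4449 cells (99.7%) held at least 1 of them. The 4 class II genes together had 2196 UMIs, in 226 cells (5.08%).

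Neck cells had a high and even class I level. In Epcam+ 1 and 2 B2m stood at 190 and 241 CPM, and in GFP+ 1 and 2 at 228 and 266 (231 ± 31.6, SD, n = 4). H2-K1 stood at 583, 619, 536 and 512 in the same order (563 ± 47.7). H2-D1 stood at 254, 252, 277 and 249 (258 ± 12.8). The 4 libraries differed little for all 3 genes, and the sorts overlapped for H2-D1 and B2m, while both GFP+ values of H2-K1 were below both Epcam+ values. Tap1 was low, at 7.07, 6.19, 4.26 and 8.94 CPM, with the GFP+ libraries on both sides of the Epcam+ ones.

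Chief cells of cluster 1 had the lowest share of class I UMIs of any cluster with 4 libraries. B2m stood there at 54.0, 73.7, 55.9 and 63.6 CPM (61.8 ± 8.97, SD, n = 4), H2-K1 at 64.0 ± 7.83 and H2-D1 at 30.4 ± 1.26, every library below every neck library. Cluster 5, also named chief, had B2m at 140, 226, 190 and 193 (187 ± 35.3), H2-K1 at 357, 518, 371 and 275 and H2-D1 at 147, 189, 173 and 125. All 12 of these values exceeded those of the same gene in cluster 1. TMM scaling, which sets the bulk of the genes equal instead of the library totals, lifted cluster 1 because its 3 secretory genes take most of the total: B2m became 287 ± 35.7 in cluster 1 and 272 ± 51.5 in cluster 5, the highest levels of all clusters, with neck cells at 168 ± 25.0. On that scale H2-K1 was 297 ± 29.3 and H2-D1 142 ± 7.36 in cluster 1.

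**Figure D1:**
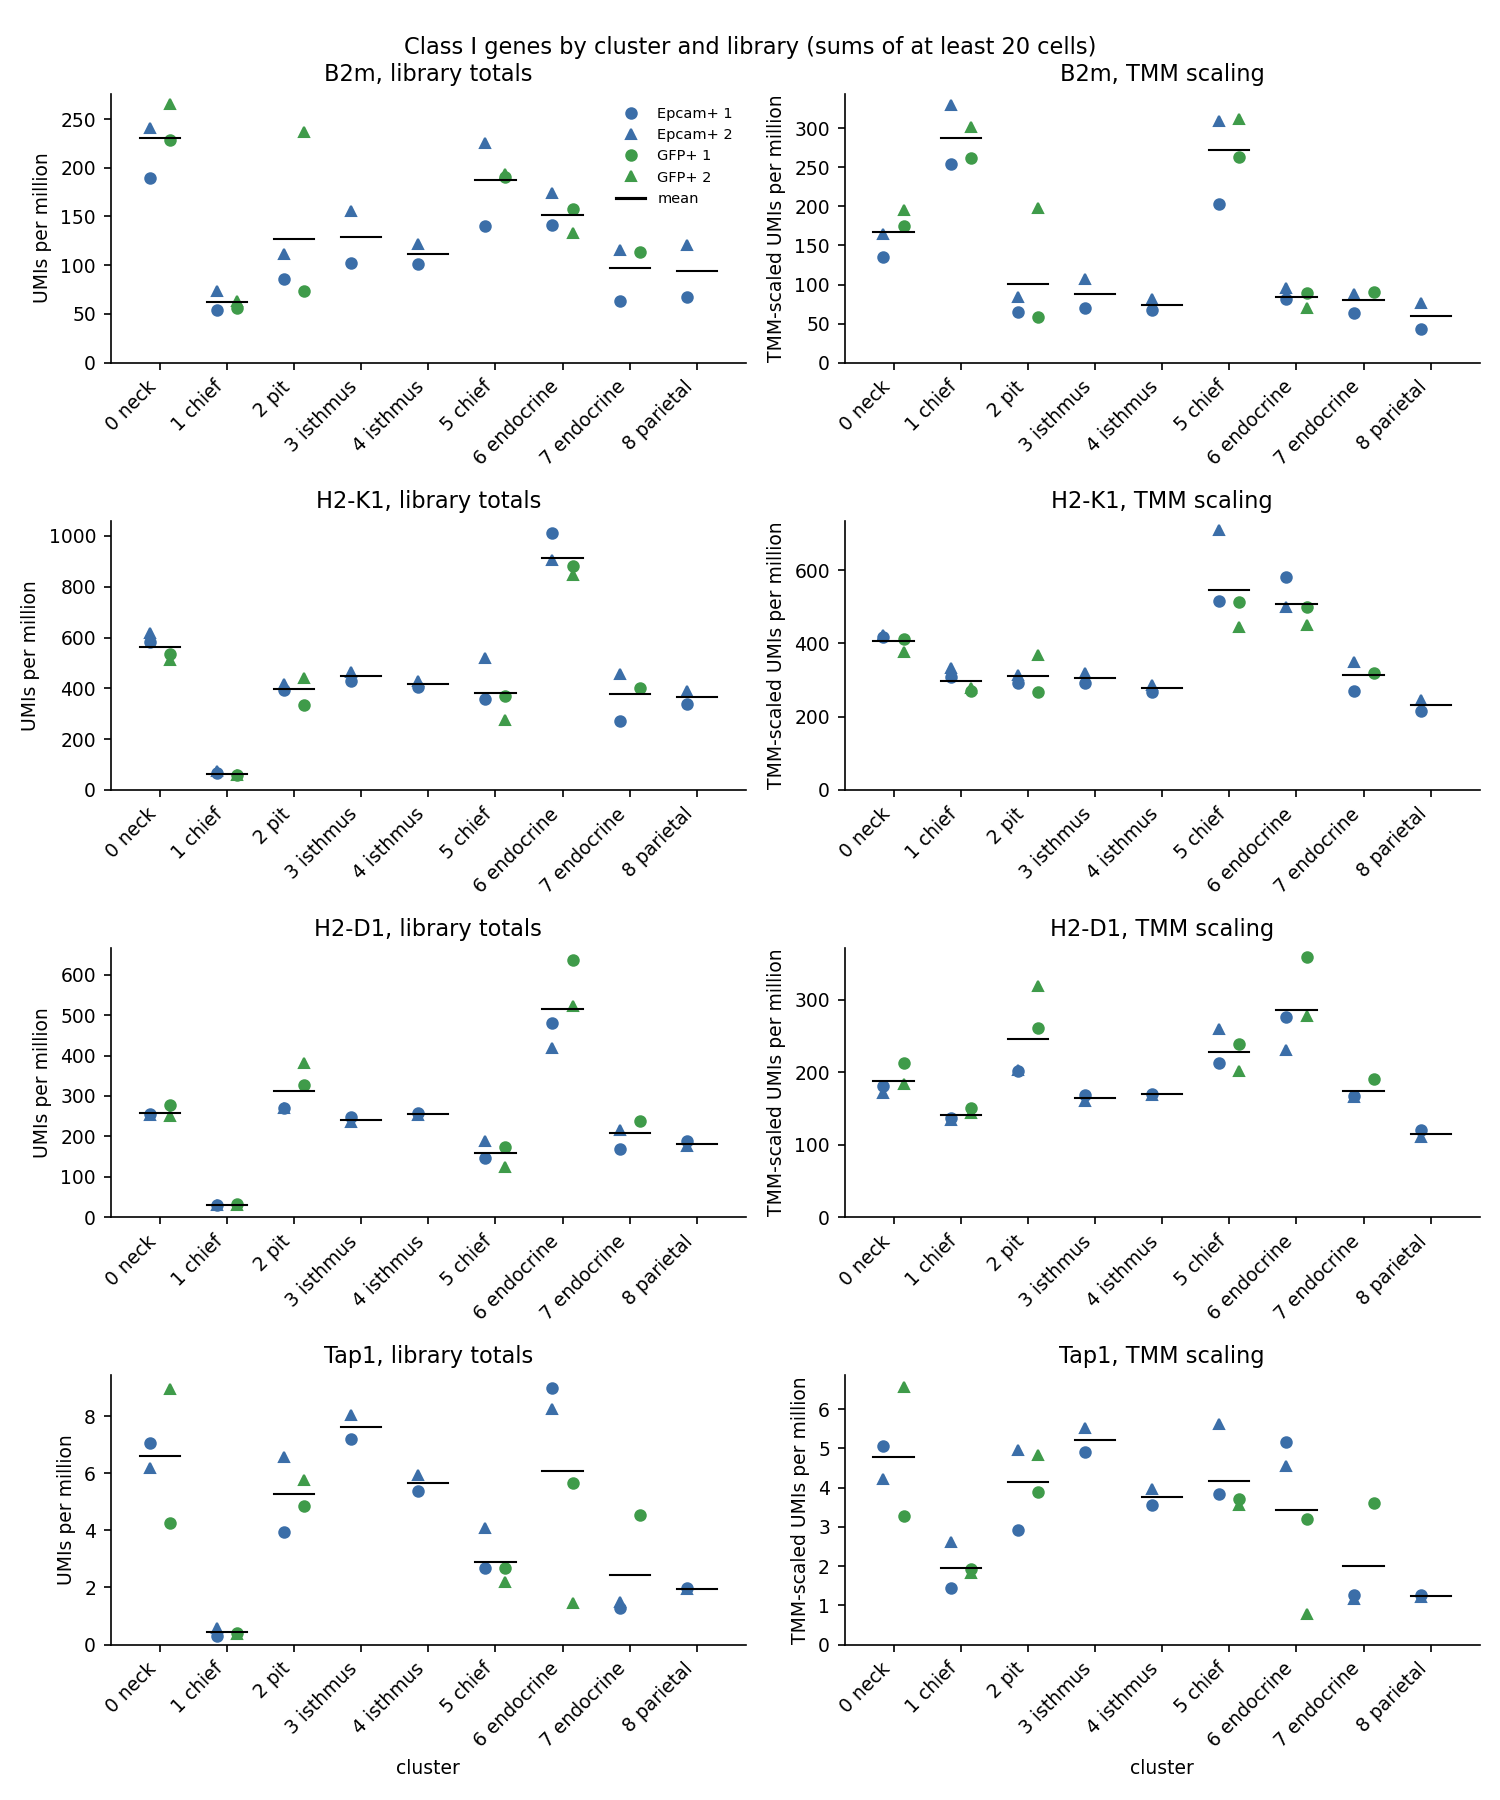
CPM of B2m, H2-K1, H2-D1 and Tap1 in each library and cluster with at least 20 cells, on library totals (left) and after TMM scaling (right), on linear axes from 0. Circles are replicate 1 and triangles replicate 2, blue is Epcam+ and green GFP+, and lines are means. H2-K1 in cluster 6 stands above all other clusters on library totals (912 ± 70.8), and B2m in cluster 1 moves from lowest (61.8) to highest (287) under TMM scaling.

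Endocrine cells of cluster 6, histamine-making cells by their Hdc and ghrelin-rich by Ghrl, had the highest H2-K1 and H2-D1 of the clusters with at least 20 cells a library. H2-K1 stood at 1012, 906, 883 and 847 CPM (912 ± 70.8) and H2-D1 at 480, 419, 636 and 524 (515 ± 91.2). Every value of either gene was above every value of clusters 0 to 5, 7 and 8. B2m did not stand apart in them (142, 174, 157 and 133). Cluster 9, whose libraries held 18, 13 and 1 cells, had H2-D1 at 571 and 702 and H2-K1 at 571 and 751 in the 2 Epcam+ libraries, a description of few cells. Under TMM scaling H2-K1 of cluster 6 (507 ± 55.0) overlapped cluster 5 (546 ± 114), and H2-D1 (286 ± 53.4) overlapped pit cells (247 ± 55.8).

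Pit cells had H2-K1 at 392, 417, 335 and 440 CPM and H2-D1 at 271, 270, 326 and 382. B2m stood at 86.3, 111 and 73.2 in 3 libraries of pit cells and at 237 in GFP+ 2, where 3 of 27 cells held 54.6% of its UMIs. In the 2 Epcam+ libraries, H2-K1 stood at 430 and 465 in cluster 3, 406 and 430 in cluster 4 and 339 and 390 in parietal cells. H2-D1 in parietal cells (188 and 176) was below that in pit cells and in clusters 3 and 4. Endocrine cells of cluster 7 had H2-K1 at 273, 455 and 401 and H2-D1 at 168, 216 and 239 in Epcam+ 1, Epcam+ 2 and GFP+ 1, the libraries with at least 20 such cells. Tap1 stood at 7.22 and 8.04 in cluster 3 in the Epcam+ libraries, and cluster 6 was higher in both of these (8.26 in Epcam+ 2). Both ranges overlapped that of neck cells. Parietal cells had the lowest mean of all 4 class I genes after TMM scaling, at 59.6 ± 23.6 for B2m, 232 ± 21.2 for H2-K1, 116 ± 6.30 for H2-D1 and 1.24 ± 0.03 for Tap1 (SD, n = 2), although the B2m range overlapped those of clusters 2, 3, 4, 6 and 7 and the Tap1 range those of clusters 6 and 7.

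The class I genes did not move together from one cell type to the next. In pit against neck cells, B2m and H2-K1 were lower while H2-D1 was higher. In cluster 1 against neck cells, B2m was higher on the TMM scale while H2-K1, H2-D1 and Tap1 were lower. In cluster 6 against neck cells, B2m was lower while H2-K1 and H2-D1 were higher. These tests (edgeR, differences on the log2 TMM scale, the library as a block, 13154 genes) use the cells from which the study drew its clusters, so the p-values are not independent of the clustering.

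In pit against neck cells, 3 of the 8 members passed an adjusted p of 0.05 (55.8% of all genes did): B2m by -0.86 on the log2 scale (SE 0.18, adjusted p = 0.000166), H2-K1 by -0.39 (SE 0.10, adjusted p = 0.00216) and H2-D1 by 0.37 (SE 0.10, adjusted p = 0.00313). The H2-D1 call was lost without TMM factors (0.26, adjusted p = 0.0549), a scale on which the median of all genes was at -0.16. Without GFP+ 2, Cd74 (-1.55, adjusted p = 0.0459) and H2-Ab1 (-2.49, adjusted p = 0.00323) also passed.

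In cluster 1 against neck cells, 5 of 8 passed against 58% of all genes. B2m differed by 0.78 (SE 0.17, adjusted p = 0.000266), H2-K1 by -0.46 (SE 0.10, adjusted p = 0.000452), H2-D1 by -0.40 (SE 0.10, adjusted p = 0.00154) and Tap1 by -1.22 (SE 0.26, adjusted p = 0.000262). Cd74 differed by -3.54 (SE 1.27, adjusted p = 0.0185). B2m turned to -1.90 on library totals without TMM factors, where the median of all genes was at -2.68. Relative to that median, B2m was higher on both scales. The scales differ only by a factor for each sum, so this is not separate support. The Cd74 call was lost without GFP+ 1 (-3.22, adjusted p = 0.0731).

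Between the 2 chief clusters, cluster 5 had more H2-K1 (0.87, SE 0.11, adjusted p = 1.43e-07), H2-D1 (0.70, SE 0.11, adjusted p = 5.34e-06), Tap1 (1.12, SE 0.35, adjusted p = 0.0112), Cd74 (4.53, SE 1.34, adjusted p = 0.00749) and H2-Aa (4.87, adjusted p = 0.0120) than cluster 1, and the 5 of 8 members compare with 39.6% of all genes. B2m did not pass (-0.09, SE 0.17), and was at 1.60 on library totals, where the median of all genes was at 1.71. Leaving out Epcam+ 1 ended the calls of Tap1 (adjusted p = 0.0566) and H2-Aa (adjusted p = 0.0514), and leaving out Epcam+ 2 that of Tap1 (adjusted p = 0.0752). Cells called doublets were kept here. In cluster 5 they were 15 of 85, 11 of 91, 2 of 62 and 8 of 40 cells in Epcam+ 1, Epcam+ 2, GFP+ 1 and GFP+ 2. In cluster 1 they were 2 of 200, 0 of 294, 0 of 145 and 4 of 257.

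Endocrine cells of cluster 6 differed from neck cells in 4 of 8 members, against 65.2% of all genes. B2m was lower (-0.94, SE 0.19, adjusted p = 7.42e-05). H2-K1 (0.32, SE 0.10, adjusted p = 0.00926), H2-D1 (0.60, SE 0.11, adjusted p = 1.47e-05) and H2-Ab1 (2.58, SE 0.79, adjusted p = 0.00558) were higher. Without Epcam+ 1 the calls of H2-K1 (adjusted p = 0.101) and H2-Ab1 (2.15, adjusted p = 0.0564) were lost. In isthmus cells of cluster 3 against pit cells only H2-D1 passed (-0.46, SE 0.13, adjusted p = 0.00727), 1 of 8 against 37.1% of all genes, and it did not pass without either Epcam+ library (adjusted p = 0.0729 and 0.0725). Without GFP+ 2, 3 of 8 passed beside 4838 of 13080 genes, H2-Ab1 among them at 2.21 (adjusted p = 0.0208).

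Thinning every cell to 16880 UMIs put the clusters at one depth. H2-K1 was then found in all 972 neck cells kept (149 shallower cells were left out) and in 60.6% of 880 cells of cluster 1 (Wilson 95% interval 57.3% to 63.7%). When Clps, Pla2g1b and Pgc were removed before thinning to 12773 UMIs, the share in cluster 1 was 97.5% (96.2% to 98.4%) and that of B2m 97.4%. H2-D1 then stood at 85.9% in cluster 1 against 94.7% in neck cells and 96.2% in cluster 5. Without thinning, H2-K1 was in 98.4% of cluster 1 cells. The intervals cover counting error only.

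Class II transcripts were concentrated in a handful of cells. A single cell held 25.8% of all class II UMIs, 2 cells held 39.8%, 10 cells 64.3% and 45 cells 84.7%, whereas the 45 cells richest in class I UMIs held 5.22% of those. At least 3 of the 4 class II genes were detected in 33 cells (0.742%), which held 77.6% of the class II UMIs, and all 4 in 18 cells. The minimum of 3 genes was chosen after the values were seen.

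**Figure D2:**
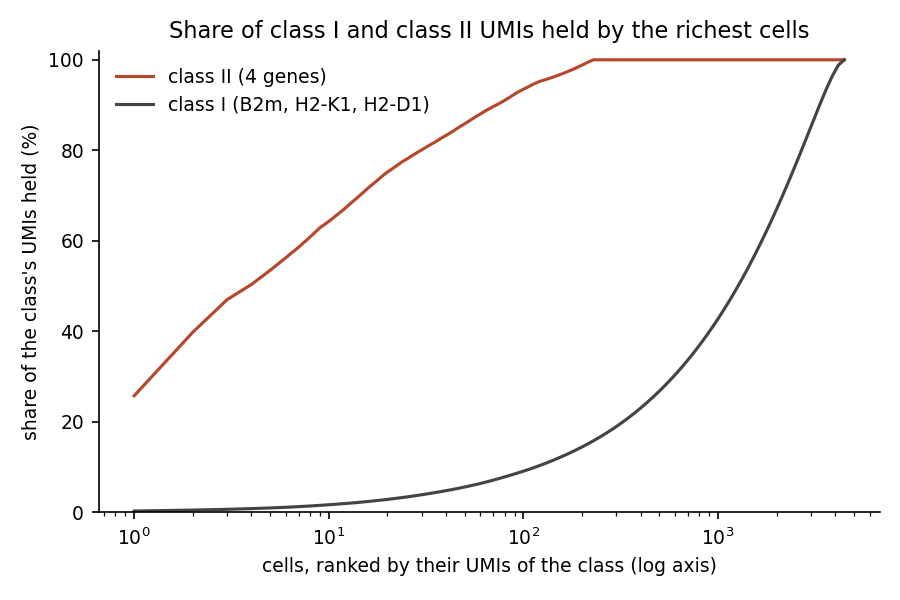
Cumulative share of UMIs (%, linear axis) against the number of cells ranked from richest to poorest (log axis), for the 4 class II genes and for B2m, H2-K1 and H2-D1 over all 4449 cells. The class II curve starts at 25.8% with the first cell and reaches 84.7% at 45 cells, where the class I curve is at 5.22%.

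The richest cell had leukocyte transcripts and no Epcam. It lay in the endocrine cluster 7 of GFP+ 2, with 566 class II UMIs among its 12712 UMIs, and held all the class II UMIs of the 8 cells of that cluster and library. It had 95 UMIs of leukocyte markers (Csf1r, C1qa, Coro1a and Cd68) and 42 of Ctss, a protease of professional presenting cells, and 0 of Epcam, Chga and Ghrl. The next 6 cells had Epcam transcripts: 308 class II UMIs in a cell of cluster 4 of Epcam+ 1, 158 in a cell of cluster 3 of Epcam+ 1, 69 in a cell of cluster 4 of Epcam+ 2, and 74, 60 and 52 in 3 pit cells of GFP+ 2. None of these 6 held a leukocyte marker UMI, and their Epcam UMIs ran from 14 to 58. The pit cell with 52 class II UMIs had 4 Ctss UMIs and the other 5 had 0. Over the 4363 cells in library and cluster sums of at least 20 cells, the 10 of 25 leukocyte markers found in the matrix (with Ptprc at 0) summed to 0 to 11.7 CPM, the 4 of 7 endothelial markers (Esam and Plvap foremost, Pecam1 at 0) to 0.724 to 34.0, and the 6 of 8 fibroblast and muscle markers (Acta2 and Myh11 foremost) to 0 to 358.

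Of the 33 cells with 3 or 4 class II genes, 32 had Epcam UMIs (5 or more, median 25.5 against 15 in all other cells), and 2 of the 32 had a leukocyte marker UMI. These 32 held 51.9% of the class II UMIs. By cluster, the 33 cells were 11 of 1121 neck cells, 1 of 896 in cluster 1, 6 of 884 pit cells, 5 of 490 in cluster 3, 2 of 385 in cluster 4, 7 of 278 in cluster 5 and 1 of 88 in cluster 7, with none in 224 cells of cluster 6, 51 of cluster 8 and 32 of cluster 9.

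Epcam-positive cells with 3 or 4 class II genes also had more class I transcripts than other cells of the same cluster and library. B2m was 4.72-fold and 4.01-fold the level of those cells in Epcam+ 1 and 2 (8 and 17 such cells) and 2.36-fold and 9.04-fold in GFP+ 1 and 2 (4 and 3 cells). H2-K1 was 3.28-fold, 3.84-fold, 2.45-fold and 3.19-fold in the same order, and H2-D1 3.74-fold, 3.68-fold, 2.87-fold and 2.81-fold. All 12 ratios were above 1, and those of H2-K1 and H2-D1 varied less between libraries than those of B2m. In Epcam+ 1, however, a single cell of cluster 4 gave 94 of the 154 B2m UMIs, 181 of the 378 H2-K1 UMIs and 113 of the 231 H2-D1 UMIs. The ratios without that cell were not computed. Of genes outside the members, chosen after their values were seen, the immunoproteasome subunit Psmb8 was at 4.56-fold to 19.0-fold and H2-DMa, which helps load class II molecules, at 8.99-fold to 58.9-fold, from 4 to 22 UMIs a library. Psmb9, another immunoproteasome subunit, ran from 0.631-fold to 12.1-fold, and H2-DMb1, which pairs with H2-DMa, from 0 UMIs in GFP+ 2 to 10.8-fold. The same cluster 4 cell gave 12 of the 21 H2-DMa UMIs and 16 of the 23 H2-DMb1 UMIs of Epcam+ 1. Tap1 ran from 1.36-fold to 17.5-fold on 2 to 14 UMIs. Irf1, an interferon-induced factor, was at 0.261-fold to 0.989-fold. The cells were picked by their class II UMIs, so the ratios have no test. Ciita, the master regulator of class II genes, had 1 UMI in the 33 cells and 3 in the other 4416, too few to compare, and Nlrc5, the regulator of class I genes, was at 0 to 0.966 CPM as a mean of any cluster.

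**Figure D3:**
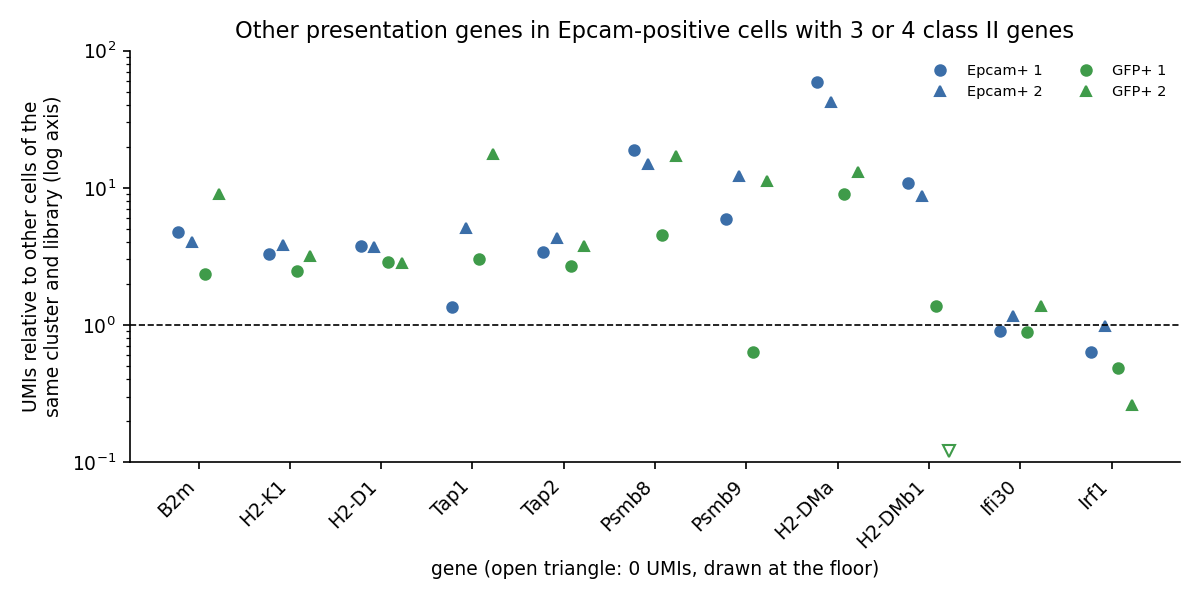
UMIs of 11 presentation and interferon genes in the 32 Epcam-positive cells with 3 or 4 class II genes, relative to the level in other cells of the same cluster and library (log axis, dashed line at 1), with 1 point a library and an open triangle at the floor for 0 UMIs. B2m, H2-K1 and H2-D1 lie above 1 in all 4 libraries (2.36 to 9.04), and Irf1 lies below 1 in all 4.

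Across clusters, class II levels varied between libraries far more than class I levels. In neck cells Cd74 stood at 3.16 and 9.57 CPM in Epcam+ 1 and 2 and at 14.6 and 4.97 in GFP+ 1 and 2, ranges that overlap. In pit cells it stood at 1.11, 1.80, 10.4 and 71.7, in cluster 5 at 10.9, 16.7, 2.34 and 3.52, and in cluster 1 at 0.0437, 0.448, 0.0917 and 0.0509. Both GFP+ libraries were above both Epcam+ libraries in pit cells and below them in cluster 5. In the isthmus, Cd74 stood at 9.02 and 6.25 in cluster 3 and 21.0 and 6.07 in cluster 4 in Epcam+ 1 and 2. The single cell with 308 class II UMIs gave 174 of the 191 Cd74 UMIs behind the 21.0. Single cells also gave 75 of the 85 UMIs behind the 9.02 and 40 of the 47 behind the 6.07. Parietal cells had 1 Cd74 UMI in 51 cells.

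After thinning to 12773 UMIs without Clps, Pla2g1b and Pgc, any class II gene was found in 12.4% of 185 cells of cluster 5 (Wilson 95% interval 8.43% to 18.0%), 4.96% of 1009 neck cells (3.78% to 6.47%) and 1.73% of 869 pit cells (1.05% to 2.83%). Cluster 1 was at 1.68% of 772 cells (0.987% to 2.86%), and the intervals of pit cells and cluster 1 overlapped. These intervals pool the cells of all libraries and cover counting error only, not the spread between libraries, so they are no test between cell types. Unthinned shares were 11.9%, 6.69%, 2.83% and 1.56% in the order cluster 5, neck, pit and cluster 1. Cluster 5 was not the highest of all clusters unthinned. In cluster 6, 28 of 224 cells held H2-Ab1 and 8 more held another class II gene without it. The same counts were 12 and 13 of 490 cells in cluster 3, and 5 and 8 of 385 in cluster 4. Median depths before thinning ran from 24316 to 39003 UMIs over the libraries of cluster 5, 21521 to 34587 in neck cells and 104376 to 165757 in cluster 1.

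**Figure D4:**
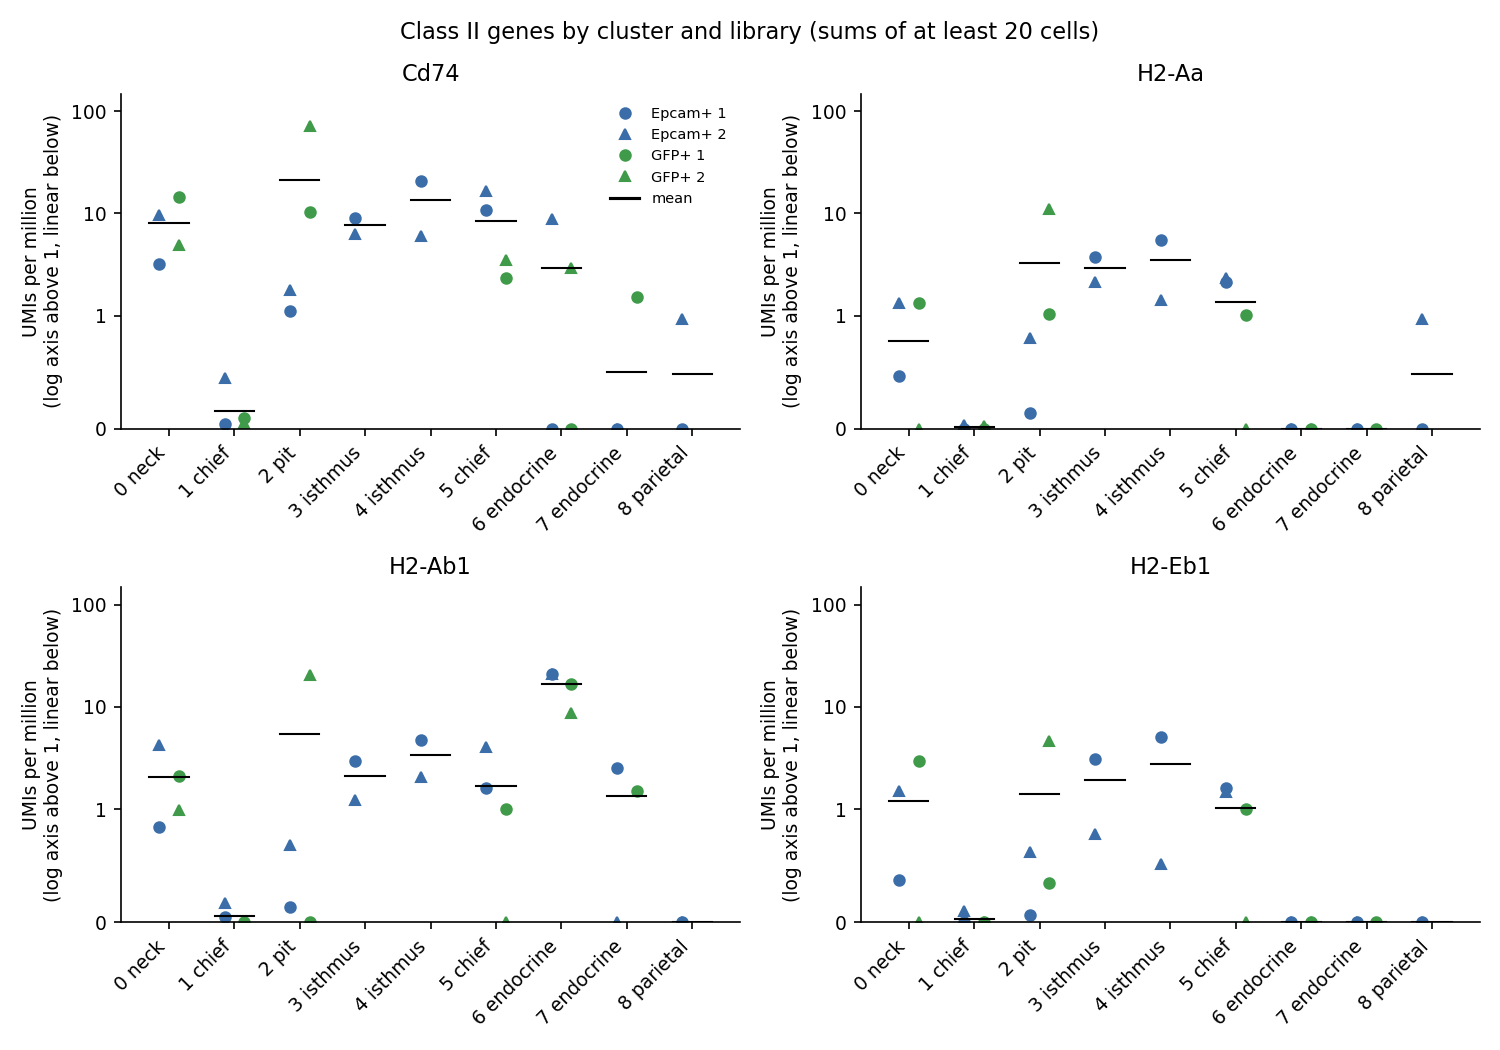
CPM of Cd74, H2-Aa, H2-Ab1 and H2-Eb1 in each library and cluster with at least 20 cells, on an axis that is linear below 1 and logarithmic above, with symbols as in the class I plot and lines for means. H2-Ab1 in cluster 6 stands at 8.75 to 21.0 in all 4 libraries while H2-Aa and H2-Eb1 are at 0 there, and Cd74 in pit cells is at 71.7 in GFP+ 2 against 1.11 and 1.80 in the Epcam+ libraries.

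Over the library and cluster sums, H2-Ab1 followed Cd74 less closely than H2-Aa and H2-Eb1 did. Over the 29 sums of a library and cluster with at least 20 cells, the Pearson correlation of log2 TMM-scaled levels was 0.93 between H2-Aa and H2-Eb1, 0.842 between Cd74 and H2-Aa, and 0.83 between Cd74 and H2-Eb1, but 0.38 between H2-Ab1 and either Cd74 or H2-Aa. H2-Ab1 was closer to H2-D1 (0.698). Sums of the same library share depth and the same few rich cells, so these values are a description. They include cluster 6, where H2-Ab1 was high and H2-Aa and H2-Eb1 had 0 UMIs, and were not computed without it. Cd74 made up 53.0% to 66.9% of the class II UMIs in clusters 0 to 5 and H2-Ab1 13.6% to 20.7%.

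In the endocrine cells of cluster 6, H2-Ab1 was found without H2-Aa and H2-Eb1, and with little Cd74. It stood at 21.0 CPM in both Epcam+ libraries, 17.0 in GFP+ 1 and 8.75 in GFP+ 2, against 0.838, 4.22, 2.13 and 0.993 in neck cells, with no overlap. It made up 85.5% of the 110 class II UMIs of the cluster, Cd74 14.5%, and H2-Aa and H2-Eb1 had 0 UMIs. Of 224 cells, 28 held H2-Ab1, and 27 of the 28 held no other class II UMI. In neck cells, 18 of the 25 cells with H2-Ab1 held another class II gene. I-A molecules need an alpha and a beta chain, and the alpha chain gene H2-Aa was not detectable in cluster 6 at this depth.

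The H2-Ab1 UMIs were spread over cells, with a median of 3 and at most 10 in a cell. Each of these 28 cells had 10 or more UMIs of Hdc, the histamine-forming enzyme of enterochromaffin-like cells. Of all 224 cells of the cluster, 193 did, and 10 was the lowest count among the 28. The cells with H2-Ab1 were also deeper, with a median of 30291 UMIs against 18386.5 in the 196 without. Leukocyte markers summed to 5.72 to 11.7 CPM over the libraries of cluster 6 against 0.532 to 0.993 in neck cells, and C1qa was higher there (7.57, SE 0.84, adjusted p = 7.33e-07). They were found in 5 of the 28 cells with H2-Ab1 (5 UMIs) and in 30 of the 196 without (37 UMIs), and their part in the H2-Ab1 level was not tested. Psmb8, chosen after its values were seen, averaged 35.8 ± 3.60 CPM in cluster 6 against 9.40 ± 1.41 in neck cells (SD, n = 4).

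**Figure D5:**
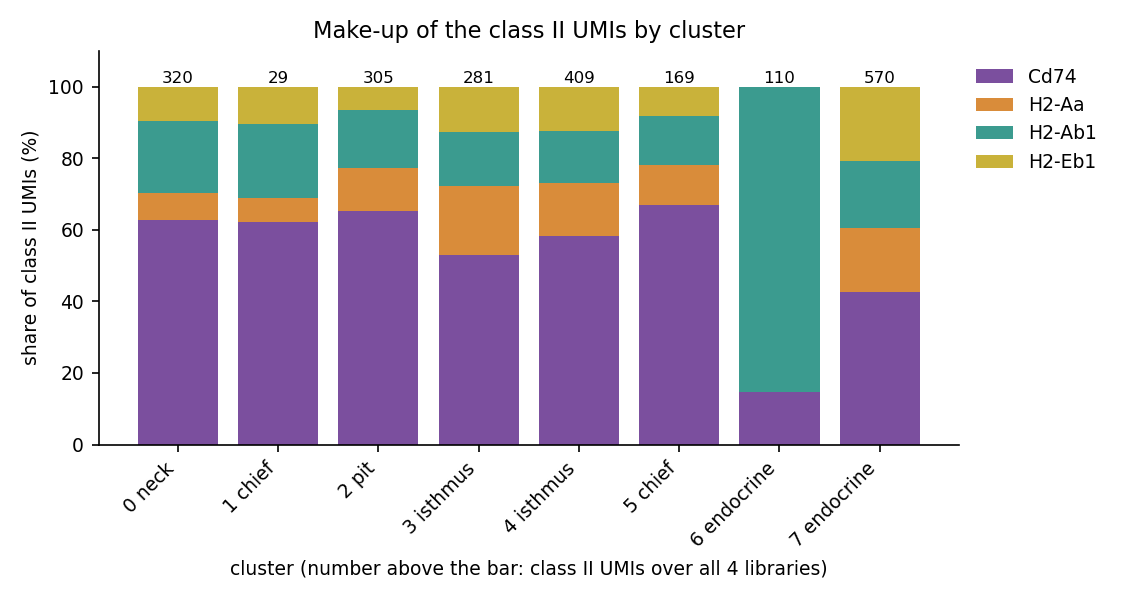
Share (%) of the class II UMIs that came from Cd74, H2-Aa, H2-Ab1 and H2-Eb1 in clusters 0 to 7, with the number of class II UMIs above each bar and clusters 8 and 9 (2 and 1 UMIs) left out. Cd74 makes up 53.0% to 66.9% in clusters 0 to 5, and H2-Ab1 makes up 85.5% in cluster 6. In cluster 7 the bar is nearly all 1 cell (566 of 570 UMIs).

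The study sorted GFP+ cells to find slowly dividing cells, and within a cluster few of the presentation genes passed a test between the sorts fitted without a replicate block. Where a cluster had at least 20 cells in all 4 libraries, the 2 GFP+ were compared with the 2 Epcam+ libraries in edgeR over all genes. Of the members with enough counts, 0 of 7 passed in neck cells (0.159% of all genes did), 0 of 4 in cluster 1 (0.0887%), 0 of 5 in pit cells (0.364%), 1 of 4 in cluster 5 (0.309%) and 0 of 5 in cluster 6 (0.221%). At an unadjusted p under 0.05 there was 1 member in neck cells (B2m, beside 1292 of 11287 genes), 1 in cluster 1 (H2-K1, 809 of 10146), 2 in pit cells (H2-D1 and Cd74, 1754 of 10983) and 1 in cluster 6 (H2-D1, 698 of 9960). DESeq2 called 2 members in pit cells (161 of 10983 genes) and 0 in clusters 0, 1, 5 and 6, with no adjusted p given for Cd74 in cluster 5. No class I member passed in any of these clusters. B2m differed by 0.32 (SE 0.12, adjusted p = 0.394) in neck cells and -0.03 (SE 0.13) in cluster 1. H2-K1 differed by -0.21 (SE 0.09, adjusted p = 0.614) in cluster 1, and H2-D1 by 0.36 (SE 0.14, adjusted p = 0.607) in cluster 6. The largest class I differences were imprecise for Tap1 in cluster 6 (-0.99, SE 0.58, adjusted p = 0.813) and B2m in pit cells (0.74, SE 0.45, adjusted p = 0.457). H2-D1 in pit cells followed, at 0.51 (SE 0.12).

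Cd74 was lower in the GFP+ cells of cluster 5, by -2.16 on the log2 scale (SE 0.39, adjusted p = 0.0354, in a comparison in which 0.264% of all genes passed as lower). The 41 and 57 Cd74 UMIs of the Epcam+ libraries came from 8 of 85 and 12 of 91 cells, and the 7 and 8 UMIs of the GFP+ libraries from 3 of 62 and 5 of 40 cells. The direction was kept in every alternative run, but the call was lost in several, among them those without Epcam+ 1 (adjusted p = 0.0783), without Epcam+ 2 (0.147), without cells called doublets (-3.04, 0.0610) and without the richest class II cell of each library and cluster (-1.79, 0.0940), the last chosen after the data were seen.

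In pit cells, Cd74 was at 4.76 (SE 0.85, adjusted p = 0.0732) and H2-D1 at 0.51 (SE 0.12, adjusted p = 0.114), neither past the threshold. All 124 Cd74 UMIs of GFP+ 2 came from 3 cells, and 28 of the 30 of GFP+ 1 from 1 cell. The sort difference of Cd74 itself differed between cell types: in cluster 5 it was 6.85 below that in pit cells (log2 -6.85, SE 0.92, adjusted p = 0.000277, 1.18% of all genes), and in pit cells it was 3.56 above that in neck cells (SE 0.78, adjusted p = 0.0361, 0.602%). In the other 4 pairs among clusters 0, 2, 5 and 6 no member passed, against 0 genes for cluster 5 with cluster 0 (545 at an unadjusted p under 0.05), 0.0475% for 6 with 0, 0.214% for 6 with 2 and 0.0396% for 6 with 5. These 6 pairs were added after the data were seen. Against cluster 1, chosen as the reference, no member's sort difference passed for clusters 0, 2, 5 or 6 (edgeR, 0.0317% and 0.182% of all genes for clusters 6 and 2 and 0 genes for clusters 0 and 5, where 454 and 627 genes had an unadjusted p under 0.05).

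Other genes of both pathways were compared between the sorts by list. Over 5 clusters and 6 lists (class I presentation, nonclassical class I, class II presentation, interferon response, interferon receptors and transducers, and costimulatory and checkpoint ligands), Cd74 in cluster 5 and Ifi27, an interferon-induced mitochondrial protein, in cluster 6 (-0.88, SE 0.14, adjusted p = 0.0271) passed and no other listed gene did. Medians of the class I presentation list lay between -0.04 and 0.21, beside at most 0.01 for all genes. The highest was in pit cells, where H2-T23, a nonclassical class I gene, was at 1.51 (SE 0.26, adjusted p = 0.0724) and the median of 23 interferon response genes was 0.24, against -0.42 for 10 such genes in cluster 5.

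Between cell types more of the listed genes passed, as did more of all genes. In cluster 1 against neck cells, where 58% of all genes passed in either direction, 11 of 16 class I presentation genes were lower and 2 higher, with a median of -0.53 beside -0.05 for all genes. Calr, a chaperone that holds class I heavy chains, was higher (1.31, SE 0.09), and Pdia3, its partner in peptide loading, was lower (-0.43, SE 0.08). Of 11 nonclassical class I genes 7 were lower and 3 higher (median -1.98), with H2-T23 at -2.90 and H2-T22 and H2-Q2 at 0.89 and 1.08. Of 25 interferon response genes 12 were lower and 2 higher (median -1.40). Irf1 (-2.71) and Irf2 (-1.38) were lower, and Ly6e (3.84) and Ifi27 (1.19) were higher. Of 9 receptors and transducers 5 were lower, with the interferon gamma receptor chains Ifngr1 (-1.64) and Ifngr2 (-1.59) and the kinase Jak1 (-0.45) among them.

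In cluster 5 against cluster 1, where 39.6% of all genes passed, more listed genes were higher than lower. Of 16 class I presentation genes 9 were higher and 1 lower (median 0.51 beside 0.05 for all genes), of 11 nonclassical genes 7 higher and 1 lower (1.53), and of 25 interferon response genes 14 higher and 2 lower (1.25), with Irf1 at 2.30. Both comparisons use the cells of cluster 1. Lgals9, a checkpoint ligand, was at -2.31 in cluster 1 against neck cells and at 2.35 in cluster 5 against cluster 1, and Nectin2 and Pvr, ligands of natural killer cell receptors, were at -0.74 and -1.29 in the first comparison and at 0.47 and 1.16 in the second. Of 11 class II presentation genes, 3 were lower and 1 higher in cluster 1 than in neck cells, and 3 higher and 1 lower in cluster 5 than in cluster 1, with the lysosomal protease Ctsl at 1.14 and -0.64 and the thiol reductase Ifi30 past the threshold in neither (-0.11 and -0.14). Rfxap, a subunit of the factor that binds class II promoters, did not pass in either (0.09 and -0.15).

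Pit and endocrine cells mixed directions within the lists. In pit against neck cells (55.8% of all genes passed), 4 class I presentation genes of 16 were higher and 8 lower, 9 interferon response genes of 25 higher and 4 lower, and of 11 nonclassical class I genes 5 lower and none higher (median -0.63 beside -0.06 for all genes). In cluster 6 against neck cells (65.2%), 8 of 16 class I presentation genes were higher and 3 lower, and 3 of 25 interferon response genes higher and 6 lower (median -0.56 beside 0.09). H2-T23 (2.98), H2-Q2 (3.41) and H2-T22 (1.29) were higher with H2-K1 and H2-D1 in these endocrine cells, while Ifngr1 was lower (-2.24). Pvr was lower as well (-5.38). In cluster 3 against pit cells (37.1%), 7 of 25 interferon response genes were lower and none higher (median -0.46 beside 0.03), and 5 of 16 class I presentation genes were higher and 1 lower.

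Genes with the pattern most like a member were ranked by Pearson correlation over the 29 sums, among 4936 or 4937 genes with a mean of at least 20 CPM, as a description. B2m was closest to Txndc11 (0.895), Rrbp1 (0.885) and Ddrgk1 (0.884), H2-K1 to App (0.867), Hexa (0.77) and Mbtps1 (0.742), and H2-D1 to Akap13 (0.833), Jak1 (0.817) and H2-T23 (0.798). Tap1 was closest to Pdia5 (0.798), Camk2d (0.755) and Bace2 (0.739). The class II genes had weaker matches: Rell1 (0.7), Bace2 (0.668) and Erbin (0.667) for Cd74, Sprr2a3 (0.719), Rad50 (0.705) and Anxa1 (0.68) for H2-Aa, Jak1 (0.712), H2-D1 and Kif2a (0.671) for H2-Ab1, and Rad50 (0.637), Sprr2a3 (0.633) and Tmem179b (0.63) for H2-Eb1. Among the members, B2m and its partner H2-D1 were uncorrelated (-0.007), B2m and H2-K1 stood at 0.405, and H2-K1 and H2-D1 at 0.681.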

How the data were processed

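Single-cell RNA of 4 mouse stomach libraries, 2 of Epcam+ and 2 of GFP+ cells, was analysed from 1 matrix of UMI counts and 1 table of cluster numbers. The authors made the deposited counts with Cell Ranger 3.0.2 on mm10 (the submitters' processing notes), filtered cells on mitochondrial share, gene number and any Ptprc or Pecam1 count (the cells kept have 1504 to 7997 genes and at most 15.0% mitochondrial UMIs), and clustered them in Seurat with a graph method on principal components of the most variable genes, from scaled log-normalized counts. How many components and what resolution they took is not given in the sources used here. The counts hold raw values per gene and cell, so the authors' filters, and not a normalization, bear on them. Genes with few or shared reads can be lost or split by that counting. Per-sample columns left unused numbered 0.

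Counts were summed per library and cluster (29 sums of at least 20 cells, 4363 cells). They were compared with the quasi-likelihood test of edgeR 4.0.16 (R 4.3.3), with TMM factors, filterByExpr, and Benjamini-Hochberg adjustment over all genes tested at 0.05. GFP+ was compared with Epcam+ within clusters 0, 1, 2, 5 and 6 without a block, clusters with the library as a block, and sort differences between clusters by an interaction term. Standard errors were derived from the log2 change and its test statistic. The code was tested on simulated data. Doublets were called with Scrublet in scanpy 1.11.5 (75 cells, 1.69%, unevenly over the clusters) and kept, except in an alternative. Thinning kept cells at or above the 10th percentile of depth and intervals are Wilson 95% intervals. A count of 0 was taken to allow up to 3 counts. Intervals and floors cover counting error only. Alternatives were library totals, DESeq2 1.42.0 size factors and Wald test, no filter, the replicate block or no block, each library left out, no counts of Clps, Pla2g1b and Pgc, no doublets, and, chosen after seeing the data, no richest class II cell and 6 further pairs of clusters.

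The members and gene lists were chosen with earlier results of these data known. Named besides the 8 members were the 3 most abundant genes of each list, list genes past the threshold between sorts, the 2 most abundant markers of other cell types with Ptprc and Pecam1, the 3 genes most like each member (Pearson correlation of log2 of TMM-scaled CPM plus 1), and Ciita, Nlrc5 and Irf1. A further gene of that rule is not reported here. Promoters came from RefSeq (GRCm38.p6) and gene positions from GENCODE vM21.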

Additional observations from a re-analysis of the deposited data

Results flagged for a closer look

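The sort difference of Cd74 (GFP+ against Epcam+, log2) differed between cell types by the interaction test of edgeR, in pairs of clusters added after the data were seen. In cluster 5 it was -6.85 relative to pit cells (adjusted p = 0.000277), and this held in every alternative run, with values from -7.56 to -5.47. In pit cells it was 3.56 relative to neck cells (adjusted p = 0.0361). This call was lost without Epcam+ 1 (3.83, adjusted p = 0.0711), without Epcam+ 2 (3.01, adjusted p = 0.629), without GFP+ 2 (1.49, adjusted p = 0.401) and without the richest class II cell of each library and cluster (4.33, adjusted p = 0.0611). In pit cells of GFP+ 2, all 124 Cd74 UMIs came from 3 of 27 cells. The part of those cells in the difference was not tested beyond these values.

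The 8 cells of the endocrine cluster 7 in GFP+ 2, too few for the sums, held 566 class II UMIs, all in the cell without Epcam UMIs. The other 3 libraries of that cluster together held 4 class II UMIs in 80 cells.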

How the results depend on the processing

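The number of members past the threshold between sorts stayed at 0 in clusters 1 and 6 under every alternative run. In pit cells it moved from 0 to 2 by DESeq2 and to 5 with no filter on low counts, and to 1 to 5 with 1 library left out. In cluster 5 it moved from 1 to 0 by DESeq2 (Cd74 at -2.13, with no adjusted p given), without doublets and without the richest class II cell, and was 0 to 1 with 1 library left out. With 1 library left out, it was 3 to 5 in pit against neck cells, 3 to 6 in cluster 5 against cluster 1, 0 to 3 in cluster 3 against pit cells, 2 to 4 in cluster 6 against neck cells, and 0 to 3 over the interactions with cluster 1. In these fits edgeR takes the lone library to vary like the others. On library totals it was 8 in cluster 1 against neck cells, 8 in cluster 5 against cluster 1 and 0 in cluster 3 against pit cells.

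The labels give both sorts the replicate numbers 1 and 2, and no source says what they share. Deviations of libraries with the same number correlated at 0.233, 0.18, 0.18, -0.037 and 0.146 in clusters 0, 1, 2, 5 and 6. With the replicate number as a block, 1 member passed in neck cells (B2m, 0.33, adjusted p = 0.00636), 2 in pit cells (Cd74, adjusted p = 0.00508, and H2-D1, adjusted p = 0.0461) and 0 in cluster 5 (Cd74 -2.11, adjusted p = 0.0591). The block moved the genes called from 18 to 665, 9 to 412, 40 to 222, 28 to 18 and 22 to 98 in clusters 0, 1, 2, 5 and 6. Without the library block, pit against neck cells gave 0.69 for Cd74 and 0.080 for H2-Ab1, and cluster 3 against pit cells -0.25 for H2-Ab1.

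Directions turned as follows, and the cause was not tested. B2m on library totals was -1.90 in cluster 1 against neck cells and 1.60 in cluster 5 against cluster 1, where it was 0.027 without doublets. In pit against neck cells, Cd74 was 1.11 by DESeq2 and 0.0083 without Clps, Pla2g1b and Pgc, and H2-Ab1 1.22 by DESeq2. In cluster 3 against pit cells, H2-Ab1 was -1.43 by DESeq2 and -0.97 without the richest class II cell. With 1 library left out, B2m between sorts in pit cells ran from -0.34 to 1.42, Cd74 in pit against neck cells from -1.55 to 0.93 and H2-Ab1 there from -2.49 to 1.23, and H2-Aa and H2-Ab1 in cluster 3 against pit cells from -0.027 to 2.17 and from -1.76 to 2.21.

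Genes called between sorts in clusters 0, 1, 2, 5 and 6 (18, 9, 40, 28 and 22) were 38, 19 and 161 in clusters 0, 1 and 2 and 10 in cluster 6 by DESeq2, 236, 639, 178 and 140 in clusters 1, 2, 5 and 6 with no filter, 14, 24, 44 and 38 there on library totals, and 1, 0 and 3 in clusters 1, 5 and 6 without doublets. With 1 library left out they ran up to 275, 78, 156, 226 and 110. On library totals 162 genes were higher and 11932 lower in cluster 1 against neck cells (3580 and 4053 with TMM), and 11475 higher and 34 lower in cluster 5 against cluster 1 (2723 and 2483). Cluster 3 against pit cells had 4883 genes, and 2468 and 2354 without Epcam+ 1 and 2. Class II genes had few UMIs and few cells per sum, which limits every statement on them.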
